A study of Mus musculus with 20 samples.

Results

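The difference between WT and Il10-/- mice in the blood response to radiation is described here: the change from 0 to 7 Gy in Il10-/- mice minus the change from 0 to 7 Gy in WT mice. Because this difference needs every group of the study, its members are all 20 of the 20 samples in the series, fitted jointly with the replicate number, which is also the slide, as a block. The study measured gene expression in whole blood with single-colour microarrays to learn whether an inflammatory disease model alters genes that report radiation exposure. The WT mice were C57BL/6 and the Il10-/- mice were B6.129P2-Il10tm1Cgn/J, a model of inflammatory bowel disease, both bred from heterozygous pairs, and the animals were male littermates 8 to 10 weeks old. Each genotype had 5 mice exposed to 7 Gy of X-rays over the whole body and 5 mice that were sham-irradiated (0 Gy), and each mouse gave 1 array. All blood was taken by cardiac puncture 24 h after exposure, stabilised in PAXgene solution and depleted of globin RNA before labelling.

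Interleukin-10 is a secreted cytokine that restrains macrophages and T helper cells, and mice without it develop inflammation of the gut. Ionizing radiation activates p53, which induces genes of cell cycle arrest and apoptosis, and it kills circulating B cells within hours while neutrophils and monocytes persist longer. A change in whole blood can be a change in which cells are present or in the RNA each cell holds: fewer cells of a type and less RNA per cell cannot be told apart in these bulk samples.

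Il10 itself was read by 1 probe (mouse genome mm9, chr1:132920943-132921002). In WT mice at 0 Gy its log2 signal was 1.73, 1.5, 1.81, 2.60 and 3.66 in replicates 1 to 5, and in WT mice at 7 Gy it was 1.45, 1.12, 2.18, 2.32 and 2.24. In mice labelled Il10-/- the log2 signal was 6.19, 6.39, 6.13, 5.98 and 6.63 at 0 Gy and 5.67, 5.90, 6.75, 6.72 and 6.80 at 7 Gy. The labelled genotypes did not overlap: 10 of 10 Il10-/- arrays and 0 of 10 WT arrays had this spot well above background, with the higher signal in the mice labelled as lacking the gene. With each WT value set no lower than the lowest signal called well above background on its array, Il10-/- exceeded WT by at least 5.85-fold at 0 Gy and at least 7.73-fold at 7 Gy. The allele disrupts the first exons of the gene, and a probe outside the altered part says nothing on the loss of the protein. Which exon the probe lies in was not tested, so the signal separates the genotypes but does not check the label's direction. The paper reports more neutrophils at baseline in Il10-/- mice. Both neutrophil lists described below had a positive median genotype difference at 0 Gy, though not every member was higher. An exchange of labels was not tested. The difference of responses for Il10 was 0.50 (SE 0.41, 5 mice a group) on the log2 scale, with a limma adjusted p of 0.621. Its WT part compares spots that were not well above background at either dose, so this is not a measured difference of responses.

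The 20 arrays were not equal in quality. The share of spots well above background ran from 29.9% on WT 0 Gy replicate 5 to 57.8% on Il10-/- 0 Gy replicate 4, with 34.6% on Il10-/- 7 Gy replicate 3, 38.5% on WT 0 Gy replicate 4 and 39.0% on Il10-/- 7 Gy replicate 4. Replicates 1 and 2 lay closer to each other than any other pair, whatever the group. The log2 difference between them had a robust SD of 0.254 in WT 0 Gy, 0.231 in WT 7 Gy, 0.210 in Il10-/- 0 Gy and 0.313 in Il10-/- 7 Gy, whereas it was 0.355 to 1.26 for all other pairs within groups. The labels give them as separate mice, and whether they are independent was not tested. The counts across the genome are therefore also given with the pair counted as 1 sample. Unless averaging is stated, the SEs, intervals and slide counts of genes and lists below take replicates 1 and 2 as separate mice. If they are not independent, those SEs and intervals are too narrow and 5 of 5 slides overstates the agreement.

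Across the genome the blood of both genotypes responded to 7 Gy, and no probe passed the test of the difference. Of 16574 probes tested, 1739 rose (10.5%) and 1079 fell (6.51%) in WT mice, and 862 rose (5.2%) and 823 fell (4.97%) in Il10-/- mice, at a limma p under 0.001 with a false discovery rate under 10%. Among them 1209 probes were called in both genotypes, all 1209 with the same sign, which holds for these probes, called for a response in each genotype, and not for all probes. The difference of responses gave 0 calls (0%) by limma, with a smallest adjusted p of 0.457. Other settings called 1050 probes with array weights, 112 with no filter, 4 with no variance moderation and 3 with liver and heart covariates. In the main fit there were 1740 probes at an unadjusted p under 0.05, 765 higher (4.62%) and 975 lower (5.88%) in Il10-/- mice. Counted with 1 probe a gene, 686 genes were higher (4.8%) and 840 lower (5.87%) of 14304.

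The 975 probes with a lower response in Il10-/- mice had a common shape. Their median WT response was 1.33 on the log2 scale and their median Il10-/- response 0.29, and 927 of them went up with dose in WT mice. At 0 Gy the median genotype difference, Il10-/- minus WT, was 0.80 and 961 of 975 were higher in Il10-/- mice, while at 7 Gy the median was -0.38 and 152 of 975 were higher. In words, these probes were already higher in unirradiated Il10-/- blood. After 7 Gy the median difference was smaller and of opposite sign, with most of the probes lower in Il10-/- than in WT blood. The difference of responses is the genotype difference at 7 Gy minus that at 0 Gy and shares all arrays with both, so these are parts of 1 quantity and not separate results. The 765 probes with a higher response had the opposite shape, with a median genotype difference of -0.83 at 0 Gy and 0.43 at 7 Gy, but they were dim: they were well above background on a median of 8 arrays, against 19 for the lower ones. Among the 4144 probes with the weakest signal, 401 were higher and 33 lower, and among the 4144 brightest, 138 were higher and 413 lower.

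**Figure D1:**
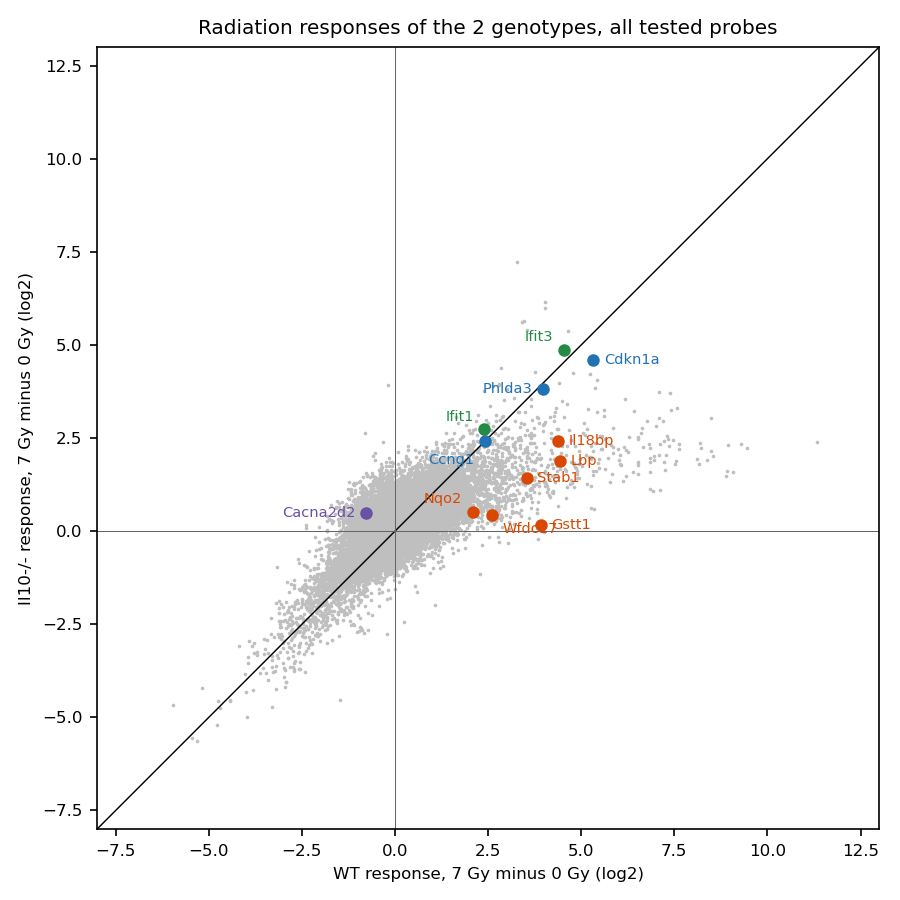
Log2 response to 7 Gy in WT mice (x axis) and Il10-/- mice (y axis) for the 16574 tested probes, with 12 named genes in colour and a line where both responses are equal. Il18bp, Lbp, Stab1, Nqo2, Wfdc17 and Gstt1 (orange) lie below the line, while Cdkn1a, Phlda3 and Ccng1 (blue) and Ifit1 and Ifit3 (green) lie near it.

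These counts depended on a few arrays and on replicates 1 and 2. With replicates 1 and 2 of each group averaged to 1 sample, limma called 0 probes and 683 of 14010 had an unadjusted p under 0.05 (4.88%), with 322 higher and 361 lower, so that the excess over 5% was lost. Leaving out replicate 1 of all groups left 695 probes and leaving out replicate 2 left 697, and the same step for replicate 5 left 1033, while without replicate 4 the higher count was 504. Among single arrays, the count was 1072 without WT 7 Gy replicate 1, 1048 without WT 7 Gy replicate 2 and 2848 without WT 0 Gy replicate 3, each with 0 calls by limma. The lower count was 540, 535, 1547 and 638 without WT 7 Gy replicates 1, 2 and 4 and Il10-/- 7 Gy replicate 1, in that order, and the higher count was 466 without Il10-/- 0 Gy replicate 4 and 1648 without WT 0 Gy replicate 3. The split between directions also moved with other settings, each of which changed the set of tested probes as well. After subtracting each array's median, 366 were higher and 1322 lower, and after quantile normalization 391 and 1107. With the normexp model, which changes the background correction, they were 1 and 1614. The deposited series table, which shows the scaling used here, gave more higher than lower probes, 1107 and 963. It held 16866 tested probes against 16574. Which change moved the split was not tested. The counts of the responses themselves were 1499 in WT and 855 in Il10-/- mice with replicates 1 and 2 averaged, from 2818 and 1685. They were 1504 and 864 without replicate 1 and 1432 and 826 without replicate 2 of all groups, and 1851 in WT mice without replicate 5 and 1034 in Il10-/- mice without replicate 3.

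**Figure D2:**
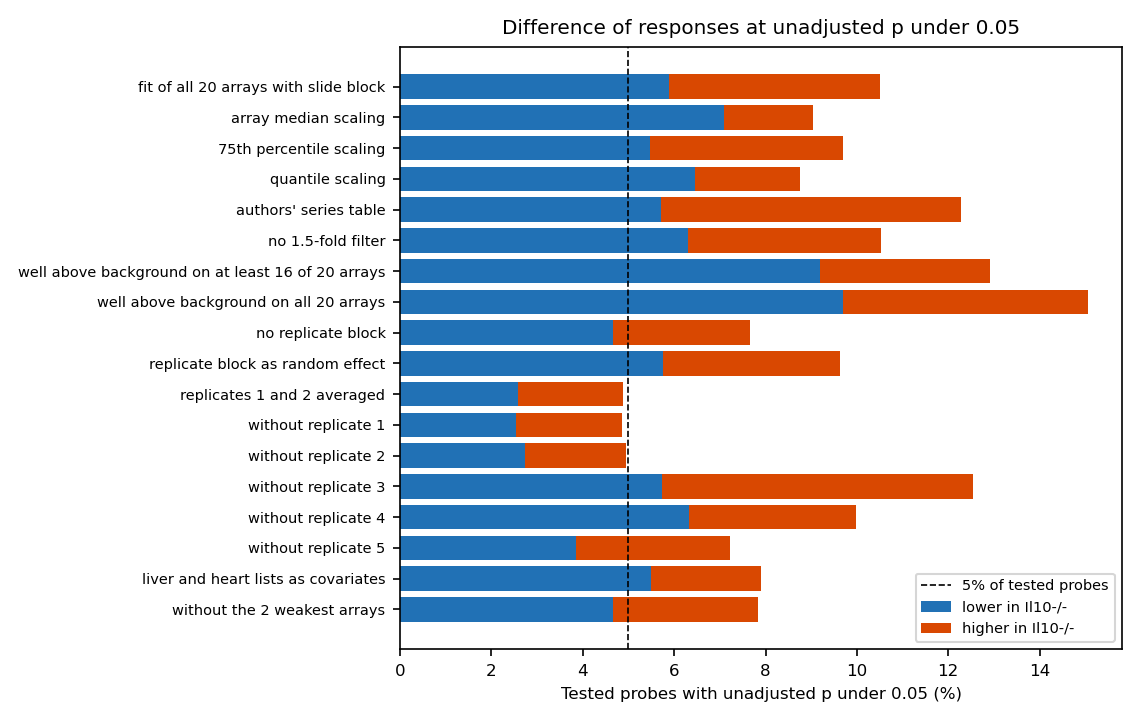
Percent of tested probes with an unadjusted limma p under 0.05 for the difference of responses (x axis) under 18 settings, split into lower (blue) and higher (orange) in Il10-/- mice, with a line at 5%. The bar is 10.5% for all 20 arrays with the slide block and 4.88% with replicates 1 and 2 averaged.

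The genes with the smallest p in the lower direction were led by an interleukin inhibitor and a sensor of bacterial lipopolysaccharide. The 10 genes were Il18bp, Lbp, Anxa9, Nqo2, Wfdc17, Stab1, Borcs7, Efemp2, Smim10l1 and Gpx3, with adjusted p of 0.457 to 0.466 in limma and values below 0 on all 5 slides for each. All 10 were higher in unirradiated Il10-/- than in unirradiated WT mice, 6 of them with a call. Over all 16574 probes, 155 were called higher and 209 lower in unirradiated Il10-/- mice. The tested difference holds the genotype difference at 0 Gy with a minus sign, so higher values at 0 Gy follow in part from the selection. By the test, 9 of the 10 rose with dose in WT mice and 4 in Il10-/- mice, beside 10.5% and 5.2% of all probes. The tested difference also holds the WT response with a minus sign, so these counts follow in part from the selection too. The smallest p of all belonged to a probe that the file names only by a transcript identifier.

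Il18bp encodes the secreted protein that binds and neutralises interleukin-18. Its log2 signal was 3.68, 4.32, 3.26, 2.60 and 3.51 in WT mice at 0 Gy and 8.10, 7.92, 7.64, 7.31 and 8.25 in WT mice at 7 Gy. In Il10-/- mice it was 6.03, 5.95, 4.97, 5.04 and 5.43 at 0 Gy and 7.57, 7.80, 8.09, 7.36 and 8.65 at 7 Gy. The irradiated genotypes overlapped, while every unirradiated Il10-/- sample lay above every unirradiated WT sample, where only replicates 1 and 2 were well above background. Il18bp rose by 4.37 (SE 0.27) in WT and by 2.41 (SE 0.27) in Il10-/- mice on the log2 scale, and the difference of responses was -1.96 (SE 0.37, 95% interval -2.76 to -1.17, below 0 on 5 of 5 slides), with a limma adjusted p of 0.457. Since the baseline of Il18bp was dim in 3 WT mice, its WT rise is also given as a bound, set as for Il10, of at least 13.5-fold. The probe lies at chr7:109164100-109164159 (mm9).

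Lbp encodes the acute-phase protein that carries bacterial lipopolysaccharide to Cd14. Its log2 signal was 4.23, 3.91, 4.33, 2.41 and 3.14 in WT mice at 0 Gy, 8.07, 8.47, 7.70, 7.15 and 8.85 in WT mice at 7 Gy, 5.68, 5.93, 5.72, 6.23 and 5.89 in Il10-/- mice at 0 Gy, and 7.38, 7.91, 8.51, 6.74 and 8.38 in Il10-/- mice at 7 Gy. The pattern was that of Il18bp, with separate groups at 0 Gy and overlapping groups at 7 Gy. Lbp rose by 4.44 (SE 0.36) in WT and by 1.89 (SE 0.36) in Il10-/- mice on the log2 scale, and the difference of responses was -2.55 (SE 0.51, 95% interval -3.64 to -1.46), with a limma adjusted p of 0.457. Of the unirradiated WT arrays 3 of 5 had Lbp well above background, and the same bound gives a WT rise of at least 13.7-fold.

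Wfdc17, a whey acidic protein family member made by activated macrophages, was bright on all 20 arrays. Its log2 signal was 11.14, 11.13, 11.13, 9.46 and 11.70 in WT mice at 0 Gy, 13.41, 13.34, 13.35, 13.67 and 13.84 in WT mice at 7 Gy, 12.70, 12.62, 13.11, 12.01 and 13.39 in Il10-/- mice at 0 Gy, and 12.73, 12.63, 13.58, 13.99 and 13.11 in Il10-/- mice at 7 Gy. The 2 Il10-/- groups overlapped each other, while WT mice moved from a low to a high group with no overlap. Wfdc17 rose by 2.61 (SE 0.36) in WT mice, and the Il10-/- response of 0.44 (SE 0.36) did not pass the test. The difference on the log2 scale was -2.17 (SE 0.51) over 5 mice a group, between -2.43 and -1.75 on the 5 slides, with a limma adjusted p of 0.466.

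Nqo2, a quinone reductase, was also well above background on all 20 arrays. Its log2 signal was 6.83, 6.91, 6.57, 5.68 and 6.43 in WT mice at 0 Gy, 9.36, 9.33, 7.97, 7.74 and 8.45 in WT mice at 7 Gy, 7.79, 7.51, 7.45, 7.63 and 7.74 in Il10-/- mice at 0 Gy, and 8.46, 8.18, 8.04, 7.96 and 8.10 in Il10-/- mice at 7 Gy. The WT samples at 7 Gy split, with replicates 1 and 2 above all others. Nqo2 rose by 2.09 (SE 0.26) in WT mice against 0.52 (SE 0.26, not called) in Il10-/- mice, a difference of -1.56 (SE 0.36) on the log2 scale, and its other tested probe gave -1.29.

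Stab1, a scavenger receptor of macrophages and vessel linings, had log2 signals of 4.38, 3.54, 3.63, 3.95 and 2.56 in WT mice at 0 Gy, 8.21, 8.12, 6.67, 6.14 and 6.60 in WT mice at 7 Gy, 4.77, 4.9, 4.87, 5.46 and 4.52 in Il10-/- mice at 0 Gy, and 6.64, 6.70, 5.58, 6.96 and 5.78 in Il10-/- mice at 7 Gy. Only 1 of the 5 unirradiated WT samples was well above background, so that the WT rise of Stab1 is given as at least 8.35-fold. The fitted difference of responses for Stab1 was -2.11 (SE 0.50) on the log2 scale, measured against that dim baseline, and the Il10-/- rise was 1.43. Gpx3, the glutathione peroxidase of plasma, was well above background on 0 of 5 unirradiated WT arrays, so that its WT signal at 7 Gy exceeded that at 0 Gy by at least 4.41-fold. The remaining lower genes were smaller or dimmer: Anxa9, an annexin, differed by -1.27 (SE 0.28), Efemp2, an extracellular matrix protein, by -1.53 (SE 0.37), Borcs7, a subunit of a lysosome-positioning complex, by -1.49 (SE 0.36) and Smim10l1 by -1.77 (SE 0.43) on the log2 scale. Each of these 4 was well above background on only 2 or 3 of the 5 unirradiated WT arrays, and Borcs7 and Smim10l1 also on only 2 of the 5 irradiated Il10-/- arrays. The other tested probe of Smim10l1, which was brighter, gave -0.56.

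**Figure D3:**
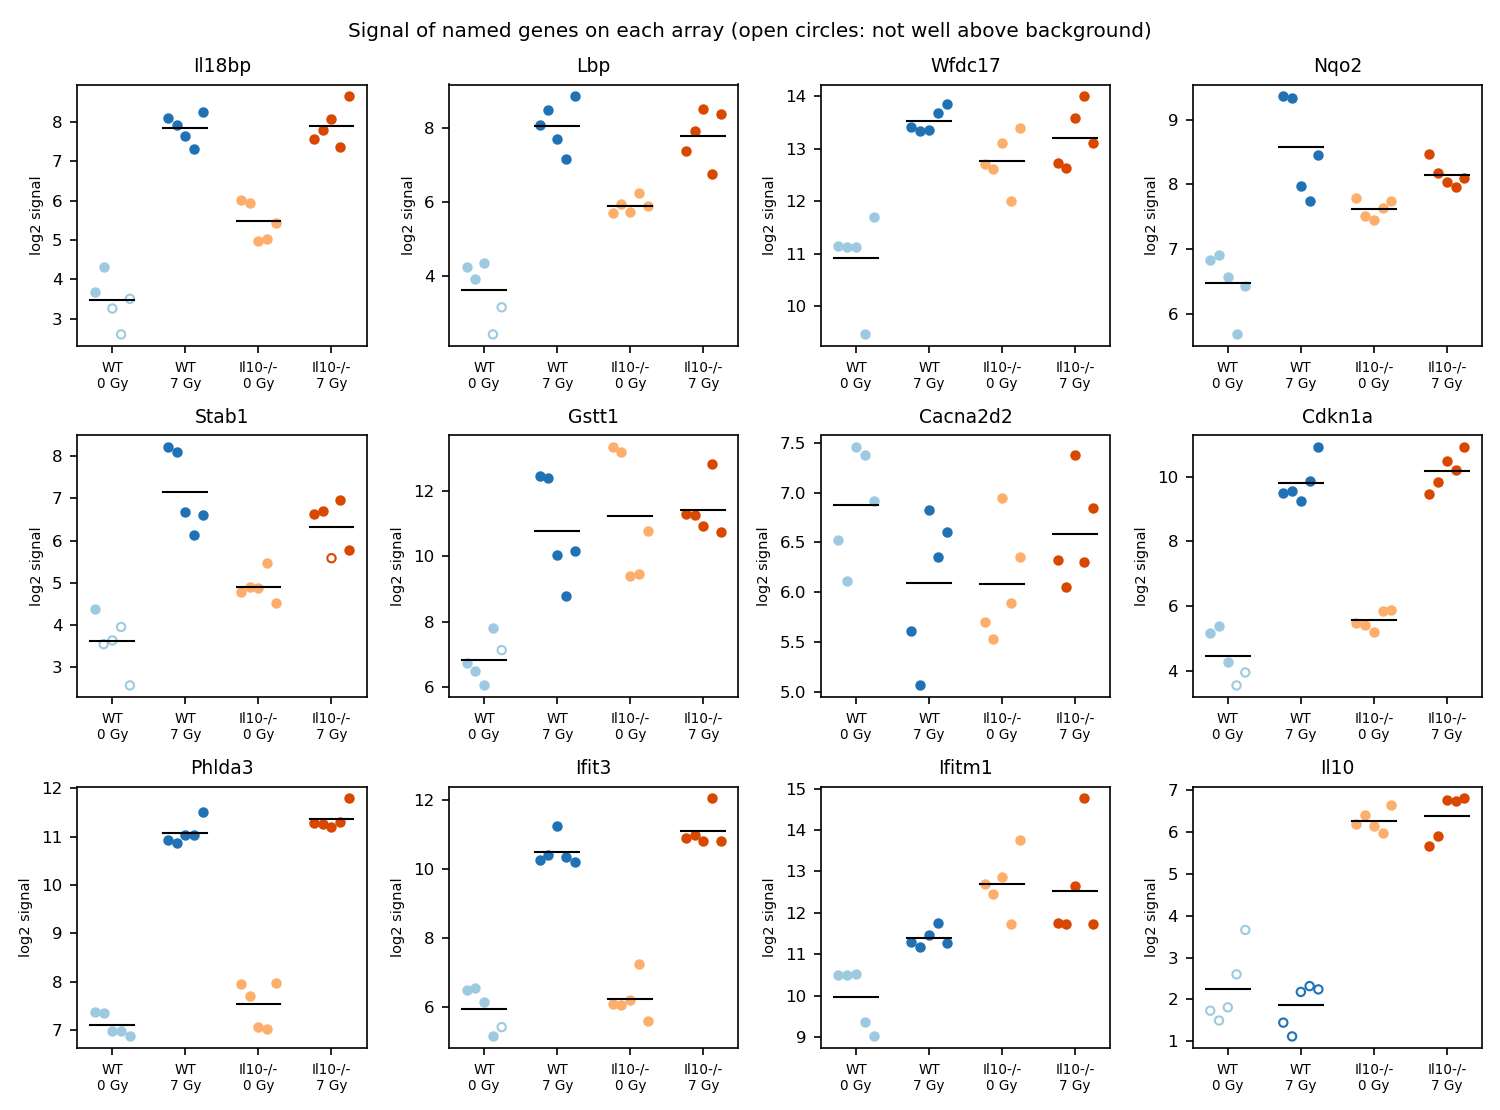
Log2 signal (y axes) of 12 genes on each array, by group, with 1 circle a mouse in replicate order, open circles for spots not well above background and a bar at the group mean of 5. For Il18bp, Lbp, Wfdc17 and Nqo2 the unirradiated Il10-/- samples lie above all unirradiated WT samples, and the irradiated groups overlap.

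Promoter sequence is shown for Il18bp and Wfdc17, which have lower fitted responses in Il10-/- mice, and for Ifit3, an interferon target that rose in both genotypes. The fitted difference of responses for Ifit3 was 0.33 on the log2 scale. Each is the 250 bases before the start of the gene in RefSeq (GRCm38.p6), written 5′ to 3′ on the gene's strand. Capitals mark matches, on either strand, to the core of the interferon response element (GAAANNGAA) or to a C/EBP site (TTGCNNAA), and the interferon-gamma activated site (TTCNNNGAA), which may overlap the first, was also searched.
Il18bp, chr7:102018233-102018482, minus strand: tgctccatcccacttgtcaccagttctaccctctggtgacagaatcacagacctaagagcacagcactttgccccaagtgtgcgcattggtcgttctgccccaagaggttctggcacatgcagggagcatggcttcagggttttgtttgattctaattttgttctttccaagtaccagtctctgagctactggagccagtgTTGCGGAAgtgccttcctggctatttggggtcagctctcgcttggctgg
Wfdc17, chr11:83703806-83704055, plus strand: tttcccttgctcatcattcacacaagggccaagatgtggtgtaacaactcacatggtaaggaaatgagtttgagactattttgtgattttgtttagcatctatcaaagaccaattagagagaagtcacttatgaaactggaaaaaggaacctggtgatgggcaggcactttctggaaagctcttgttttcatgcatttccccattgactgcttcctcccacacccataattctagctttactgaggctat
Ifit3, chr19:34583279-34583528, plus strand: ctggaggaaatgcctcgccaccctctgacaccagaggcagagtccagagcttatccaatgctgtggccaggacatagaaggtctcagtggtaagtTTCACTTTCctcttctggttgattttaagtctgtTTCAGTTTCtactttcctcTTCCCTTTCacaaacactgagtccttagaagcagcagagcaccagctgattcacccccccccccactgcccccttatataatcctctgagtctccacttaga
Il18bp held 1 C/EBP match, Wfdc17 held none of the motifs, and Ifit3 held 3 interferon response element matches. Of 32851 promoters of this length, 7.13% held GAAANNGAA, 7.02% TTCNNNGAA and 9.56% TTGCNNAA. Of the 10 genes with the smallest p in the lower direction 9 had a promoter in the table, and 0, 0 and 2 of the 9 held these motifs in that order, which describes letters and not binding.

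The top genes of the higher direction were mostly at background level. In a separate fit of the 5275 probes well above background on all 20 arrays, 283 were higher and 511 lower. That filter was chosen after seeing the data. The 10 genes with the smallest p were Scgb2b27, Col5a2, 1700028P14Rik, Igfbp7, Adamts10, Cacna2d2, Ttc39a, Ptcra, Agr2 and Bpifb2, and 9 of these 10 were well above background on 5 or fewer of 20 arrays, 4 of them on none. The other tested probes of Ttc39a, which were brighter, gave -0.07 and -0.20. Cacna2d2, an auxiliary subunit of voltage-gated calcium channels, was the exception, measured on all 20. Its log2 signal was 6.53, 6.12, 7.45, 7.37 and 6.91 in WT mice at 0 Gy, 5.61, 5.07, 6.83, 6.35 and 6.60 in WT mice at 7 Gy, 5.70, 5.53, 6.95, 5.89 and 6.36 in Il10-/- mice at 0 Gy, and 6.32, 6.06, 7.37, 6.30 and 6.85 in Il10-/- mice at 7 Gy. All 4 groups overlapped, and the pattern appeared within slides, where the difference lay between 0.80 and 1.57. The fitted difference for Cacna2d2 was 1.28 (SE 0.31) on the log2 scale, from -0.78 in WT and 0.49 in Il10-/- mice, neither of them called. Col5a2, a fibrillar collagen chain with a fitted difference of 2.63 (SE 0.53), was well above background on 1 of 20 arrays, so its value describes background-level spots.

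Gene lists were read by the median difference of responses over their tested genes, against 0.09 on the log2 scale over all 14304 genes. No list member passed the test of the difference. Counts of list members that rose or fell are calls of the single responses. Of all probes, 10.5% rose and 6.51% fell in WT mice, and 5.2% rose and 4.97% fell in Il10-/- mice. Genes with an unadjusted p under 0.05 are counted as higher or lower in Il10-/- mice, beside the 4.8% and 5.87% found over all genes. Those shares and the median of all genes depend on signal. Of the 4144 brightest probes 138 were higher and 413 lower, with a median of -0.07. Of the 4144 weakest, 401 were higher and 33 lower, with a median of 0.52. The lists were not matched to all genes by signal, so a bright list can lie below all genes for that reason alone. Direction relative to all genes was compared under 6 scalings, because the median of all tested probes differed between them. It was 0.08 in the main fit and -0.20, -0.10 and -0.92 with array-median, quantile and background-model scaling, which also changed the probes tested.

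Transcripts of liver proteins showed the largest list medians and also the widest spread between mice. The hepatocyte list had a median of -4.26 over 53 tested genes, with 0 higher and 8 lower, and 53 of 53 values were negative. Its mean log2 signal was 5.17, 5.18, 4.16, 4.58 and 4.9 in WT mice at 0 Gy, 14.02, 14.05, 11.16, 5.79 and 8.39 in WT mice at 7 Gy, 5.40, 5.32, 11.13, 11.97 and 5.17 in Il10-/- mice at 0 Gy, and 12.13, 12.18, 5.37, 10.53 and 7.51 in Il10-/- mice at 7 Gy. The level thus differed widely between mice within 3 of the 4 groups and was low in all 5 unirradiated WT mice. On the slides the list median was -2.11, -1.96, -14.18, -2.30 and -1.13. Between 13 and 60 of its 60 genes on the array were well above background, and the summed log2 signal ran from 13.18 on WT 0 Gy replicate 4 to 21.20 on WT 7 Gy replicate 1. The member with the highest probe signal on every array was Hp, haptoglobin, which neutrophil precursors also make, with a log2 signal of 12.86, 12.76, 12.39, 11.17 and 12.46 in WT mice at 0 Gy. Blood was drawn by cardiac puncture, and the part of liver or heart tissue in these signals was not tested.

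**Figure D4:**
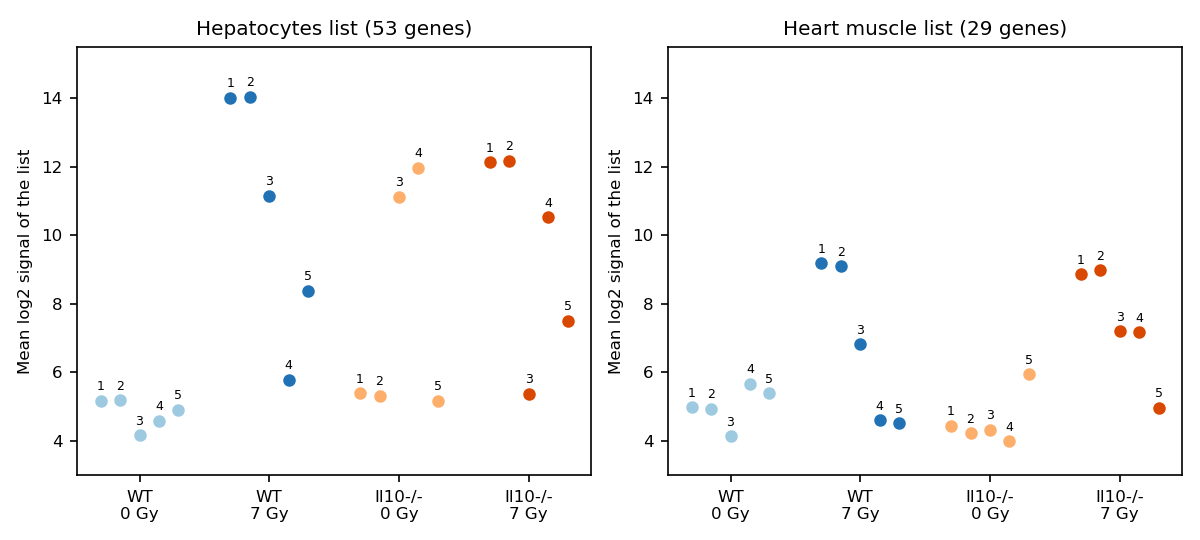
Mean log2 signal (y axes) of the 53 hepatocyte genes and the 29 heart muscle genes on each array, by group, with the replicate number above each point. The hepatocyte level reaches 14.05 in WT mice at 7 Gy and 11.97 in Il10-/- mice at 0 Gy, and stays at or below 5.18 in all unirradiated WT mice.

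Acute-phase proteins, which liver cells secrete in inflammation, had a median of -3.08 over 25 genes, with 0 higher and 12 lower. Lbp had the smallest p of the list, and Saa1, serum amyloid A, differed by -2.62 (SE 0.92) after rising by 6.17 in WT and 3.55 in Il10-/- mice on the log2 scale. Complement genes, whose products tag microbes for uptake, had a median of -1.25 over 28 genes, with 0 higher and 10 lower. C4b, a complement component, had log2 signals of 9.10, 9.09, 10.12, 8.69 and 6.45 in WT mice at 0 Gy, 14.06, 14.00, 12.74, 11.78 and 13.20 in WT mice at 7 Gy, 11.34, 11.33, 11.40, 11.72 and 10.58 in Il10-/- mice at 0 Gy, and 13.24, 13.02, 13.57, 12.94 and 13.51 in Il10-/- mice at 7 Gy. The unirradiated genotypes were separate and the irradiated ones overlapped, and the difference for C4b was -2.49 (SE 0.70). Lipid genes of lipopolysaccharide and interleukin-1 signaling had a median of -1.28 over 30 genes, with 0 higher and 10 lower, led by Apoc2 at -2.75 (SE 0.79). Apoe, an apolipoprotein of liver and macrophages, differed by -3.05 (SE 0.90) on the log2 scale. The hepatocyte list shares genes with the acute-phase and lipid lists, and all 4 lists were below all genes under all 6 scalings.

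With the mean signals of the hepatocyte and heart muscle lists of each array as covariates, the acute-phase median was -1.03 and the complement median -0.41, beside -0.08 over all probes. The acute-phase list shares genes with the hepatocyte covariate, so its median is not independent of that covariate. With the same covariates the fitted values were -1.91 for Il18bp, -2.12 for Lbp, -2.31 for Wfdc17, -1.37 for Nqo2, -1.68 for Stab1 and -1.96 for Gpx3 on the log2 scale. Il18bp, Lbp, Stab1 and Gpx3 were well above background on 2, 3, 1 and 0 of the 5 unirradiated WT arrays. Their values are thus measured against a dim baseline. In that fit limma called 3 probes, all lower: 2 probes of Camp, a neutrophil granule peptide, at -4.10 and -3.36, and 1 of Col18a1 at -3.33, which were named after their values were seen. Without the covariates these Camp probes had -1.92 and -1.40, with unadjusted p of 0.0566 and 0.117, and the Col18a1 probe -4.75.

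Of 20 tested genes of macrophages and scavenger receptors, 13 rose in both genotypes, with a median response of 2.85 in WT and 1.91 in Il10-/- mice on the log2 scale. In WT mice 15 rose and in Il10-/- mice 13, and the median difference was -1.07, with 0 higher and 6 lower. Cd5l, a secreted macrophage protein, differed by -1.62 (SE 0.70), whereas C1qb, a chain of complement C1q, rose by 2.58 in WT and 2.71 in Il10-/- mice on the log2 scale with a difference of 0.14 (SE 0.32). The monocyte list had a median of -0.61 over 30 genes with 0 higher and 5 lower, and its slide medians ran from -1.64 to 0.14. Ms4a4a, a membrane protein of macrophages, had the smallest p of that list at -1.69 (SE 0.45), with 0 of 5 irradiated Il10-/- arrays well above background. The lysosome list had a median of -0.51 over 29 genes, with 0 higher and 4 lower. The log2 signal of Ctsl, a lysosomal protease, was 7.37, 7.37, 7.70, 5.99 and 6.11 in WT mice at 0 Gy, 11.79, 11.92, 10.32, 9.72 and 10.74 in WT mice at 7 Gy, 8.28, 8.29, 9.30, 10.42 and 8.34 in Il10-/- mice at 0 Gy, and 10.51, 10.41, 10.29, 9.58 and 10.45 in Il10-/- mice at 7 Gy. Again the unirradiated genotypes were separate and the irradiated ones overlapped, with a difference of -2.67 (SE 0.70) for Ctsl. All 3 lists were below all genes under all 6 scalings. With the liver and heart covariates the medians were -0.41 for macrophages, -0.41 for monocytes and -0.51 for lysosome genes, and the part of liver tissue, which has macrophages of its own, was not tested.

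Both neutrophil lists had a positive median genotype difference at 0 Gy, though not every member was higher. The median genotype difference at 0 Gy was 1.5 for mature neutrophils and 1.29 for neutrophil precursors, and at 7 Gy it was 0.88 and 0.16 on the log2 scale. The median difference of responses was -0.51 over 34 genes of mature neutrophils, with 2 higher and 4 lower, and -0.95 over 18 genes of precursors, with 0 higher and 4 lower. Wfdc21, a whey acidic protein family member, had log2 signals of 8.84, 8.68, 7.82, 7.36 and 8.47 in WT mice at 0 Gy, 13.09, 12.83, 10.17, 8.42 and 8.10 in WT mice at 7 Gy, 12.07, 11.79, 11.66, 11.68 and 12.71 in Il10-/- mice at 0 Gy, and 11.23, 11.11, 10.57, 11.80 and 9.50 in Il10-/- mice at 7 Gy. Irradiated WT mice ranged from the level of unirradiated WT mice to above all Il10-/- mice, and the difference was -3.43 (SE 0.99). Lcn2, the iron-scavenging lipocalin of neutrophil granules, differed by -2.08 (SE 0.78), with slide values of -4.21, -3.77, -1.23, 1.17 and -2.35. Both lists were below all genes under all 6 scalings. Eosinophil, basophil and mast cell genes had a median of -0.14 over 13 genes with 0 higher and 2 lower, led by Cpa3, a mast cell protease, at -1.65 (SE 0.61, 3 of 5 unirradiated WT arrays well above background), and were also below all genes under all 6.

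Lists of oxidative metabolism had negative medians. Mitochondrial respiratory chain subunits had a median of -0.77 over 59 genes, 58 of them negative, with 0 higher and 16 lower. Cox5b, a subunit of cytochrome c oxidase, differed by -1.22 (SE 0.41) on the log2 scale. Glutathione metabolism had a median of -1.06 over 41 genes with 0 higher and 10 lower, and the Nrf2 antioxidant genes had -0.52 over 21 genes with 0 higher and 4 lower, among them Prdx1, a peroxiredoxin, at -1.33 (SE 0.39) and at -2.06 on another probe. Proteasome subunits had a median of -0.71 over 22 genes with 0 higher and 4 lower, and ribosomal proteins -0.39 over 17 genes with 0 higher and 2 lower, since 17 of 79 ribosomal genes varied enough to be tested. The slide medians were below 0 on 5 of 5 slides for the mitochondrial, glutathione, proteasome and ribosomal lists and on 4 of 5 for the Nrf2 list. Slides 1 and 2 hold replicates 1 and 2, whose independence was not tested. All 5 lists were below all genes under all 6 scalings. The hepatocyte list was also negative on all 5 slides, and its part in these medians was not tested. With the liver and heart covariates the medians were -0.64 for the mitochondrial, -0.70 for the glutathione, -0.73 for the Nrf2, -0.33 for the proteasome and -0.26 for the ribosomal list. Heat shock proteins had a median of -0.16 over 25 genes with 0 higher and 2 lower, and lay above all genes under 1 of the 6 scalings. Hsp90b1, a chaperone of the endoplasmic reticulum, differed by -1.12 (SE 0.46).

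Genes of the p53 pathway are the usual reporters of radiation exposure. Of 39 tested p53 targets, 21 rose in WT and 18 in Il10-/- mice, beside 10.5% and 5.2% of all probes. The median difference was -0.06, with 0 higher and 4 lower. The log2 signal of Phlda3, an inhibitor of Akt, was 7.37, 7.34, 6.98, 6.97 and 6.87 in WT mice at 0 Gy, 10.93, 10.88, 11.03, 11.04 and 11.52 in WT mice at 7 Gy, 7.95, 7.70, 7.06, 7.02 and 7.98 in Il10-/- mice at 0 Gy, and 11.27, 11.26, 11.19, 11.31 and 11.79 in Il10-/- mice at 7 Gy. Doses were fully separated in each genotype, and the genotypes overlapped at each dose. Phlda3 rose by 3.97 (SE 0.23) in WT and 3.82 (SE 0.23) in Il10-/- mice on the log2 scale, and the 95% interval of the difference was -0.83 to 0.53. Ccng1, a cyclin of p53 feedback, rose by 2.42 in each genotype, and the 95% interval of its difference was -0.62 to 0.63. Those intervals bound the difference and do not show that the responses were equal.

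Cdkn1a, the p21 cell cycle inhibitor, had log2 signals of 5.18, 5.39, 4.3, 3.57 and 3.97 in WT mice at 0 Gy, 9.50, 9.54, 9.24, 9.87 and 10.90 in WT mice at 7 Gy, 5.50, 5.44, 5.21, 5.86 and 5.88 in Il10-/- mice at 0 Gy, and 9.45, 9.85, 10.48, 10.20 and 10.90 in Il10-/- mice at 7 Gy. Doses were separate in both genotypes. The rise was 5.33 (SE 0.38) in WT and 4.60 (SE 0.38) in Il10-/- mice, a difference of -0.73 (SE 0.54), while another tested probe of Cdkn1a gave 1.12 on the log2 scale. With 3 of 5 unirradiated WT arrays well above background for Cdkn1a, the bound on its WT rise is at least 33.3-fold. The probe named Aen, for an apoptosis-enhancing nuclease, differed by -0.39 (SE 0.38) and rose in both genotypes, but the array headers place it on chromosome 4, and whether it reads that gene was not tested. The p53 target with the smallest p was Dcxr, a sugar reductase that liver also makes, at -1.88 (SE 0.69, 3 of 5 unirradiated WT arrays well above background) and at -0.67 with the liver and heart covariates. Under 5 of 6 scalings the p53 list lay below all genes and under 1 above.

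DNA repair and proliferation lists held few members past the unadjusted threshold. Homologous recombination and Fanconi genes had a median of -0.34 over 17 genes with 1 higher and 0 lower, and Exo1, an exonuclease, was the higher one at 1.06 (SE 0.47), with 0 of 5 irradiated WT arrays well above background. Base and nucleotide excision repair had -0.10 over 25 genes with 0 higher and 1 lower, which was Apex1, the abasic site endonuclease, at -1.26 (SE 0.41). End joining and damage sensing had a median of 0.00 over 18 genes with 0 in either direction. Cell cycle and DNA replication had 0.07 over 46 genes with 0 higher and 2 lower, and 12 of the 46 fell in WT and 11 in Il10-/- mice. The Bcl2 family of apoptosis regulators had -0.19 over 18 genes with 0 higher and 1 lower, which was Bad at -0.77 (SE 0.33) and at -0.26 on another probe. Of these 5 lists only the homologous recombination list kept its side of all genes under all 6 scalings, below.

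Of 63 tested interferon-stimulated genes 41 rose in WT and 33 in Il10-/- mice, 32 of them in both, and the median difference was -0.19 with 1 higher and 4 lower, below all genes under 5 of 6 scalings and above under 1. The log2 signal of Ifit3, an antiviral effector, was 6.48, 6.55, 6.14, 5.14 and 5.41 in WT mice at 0 Gy, 10.24, 10.39, 11.23, 10.34 and 10.19 in WT mice at 7 Gy, 6.10, 6.05, 6.19, 7.25 and 5.60 in Il10-/- mice at 0 Gy, and 10.88, 10.98, 10.81, 12.04 and 10.80 in Il10-/- mice at 7 Gy. Doses were fully separated in both genotypes, and Ifit3 rose by 4.53 (SE 0.35) in WT and 4.87 (SE 0.35) in Il10-/- mice. Ifit1 rose by 2.39 and 2.73 on the log2 scale, a difference of 0.34 (SE 0.37). The gene Ifitm1, which restricts virus entry, did not share this: its log2 signal was 10.50, 10.49, 10.53, 9.36 and 9.02 in WT mice at 0 Gy, 11.31, 11.17, 11.48, 11.76 and 11.26 in WT mice at 7 Gy, 12.69, 12.45, 12.86, 11.74 and 13.75 in Il10-/- mice at 0 Gy, and 11.75, 11.73, 12.64, 14.77 and 11.74 in Il10-/- mice at 7 Gy. Every unirradiated Il10-/- sample was above every unirradiated WT sample, and neither response of Ifitm1 was called, at 1.42 in WT and -0.17 in Il10-/- mice. The difference for Ifitm1 was -1.59 (SE 0.76, 95% interval -3.21 to 0.02), with a limma adjusted p of 0.475. Bst2, tetherin, was the interferon gene with the smallest p in the lower direction, at -1.30 (SE 0.46) and at -0.48 with the liver and heart covariates.

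Lists of antigen presentation held few members past the unadjusted threshold. MHC class I and peptide loading had a median of -0.20 over 19 genes with 0 higher and 2 lower. B2m, the invariant chain of class I molecules, rose by 1.29 in WT and 1.14 in Il10-/- mice with a difference of -0.14 (SE 0.31). MHC class II had a median of 0.22 over 11 genes with 0 in either direction, and 9 fell in WT and 8 in Il10-/- mice. H2-Ab1, a class II chain, fell by 1.93 in WT and fell by 1.45 in Il10-/- mice on the log2 scale, a difference of 0.48 (SE 0.48). The class I list lay above all genes under 1 of 6 scalings and the class II list was above under all 6. With replicates 1 and 2 averaged, however, the class II list stood 0.00 from all genes.

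Most B cell genes fell in both genotypes. Of 27 tested B cell genes 23 fell in WT and 23 in Il10-/- mice, the median response was -3.00 in WT and -3.38 in Il10-/- mice, and the median difference of -0.12 held 0 genes in either direction. T cell genes had a median difference of 0.23 over 31 genes with 1 higher and 0 lower. The higher one was Dapl1, a gene of naive lymphocytes, which fell in both genotypes to background level, with 0 of 5 irradiated WT and 1 of 5 irradiated Il10-/- arrays well above background. The fall is therefore given as a bound, at least 31.9-fold in WT and at least 16.2-fold in Il10-/- mice, and the difference for Dapl1 compares spots near background. T-cell receptor signaling had 0.15 over 28 genes, NK and cytotoxic cells -0.07 over 27 and plasma cells -0.29 over 7, with 0 genes in either direction in each. The T cell and T-cell receptor lists were above and the plasma cell list below all genes under all 6 scalings, while the B cell and NK lists changed sides. On slide 4 the B cell, NK and plasma cell medians were -1.62, -1.06 and -2.04, the lowest of the 5 slides in each.

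Red cell and platelet genes gave no member in either direction. The erythroid list had a median of -0.01 over 51 genes, and 23 fell in WT and 23 in Il10-/- mice. Platelet and megakaryocyte genes had 0.18 over 34 genes, with slide medians from -0.74 to 1.98. Of the 34, 6 rose in WT and 6 in Il10-/- mice, beside 10.5% and 5.2% of all probes. Both lists changed sides of all genes between scalings.

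Il18bp was also the member with the smallest p among inflammatory cytokines and receptors. That list had a median of -0.24 over 41 genes with 0 higher and 6 lower, below all genes under all 6 scalings. Chemokines and receptors had -0.17 over 31 genes with 2 higher and 1 lower, and the Th1, IL-12 and IL-27 axis had 0.03 over 31 genes with 2 higher and 1 lower, and both changed sides between scalings. Cxcl2, a neutrophil chemokine with a value of 2.40 (SE 0.84), was well above background on 1 of 20 arrays. Collagens and fibrosis genes had a median of 0.08 over 23 genes with 1 higher and 3 lower, and changed sides between scalings. Col18a1, a collagen that liver makes, was the lowest of them at -4.64 (SE 1.71), with 0 of 5 unirradiated WT arrays well above background. Heart muscle genes had a median of 0.76 over 29 genes with 2 higher and 0 lower, above all genes under all 6 scalings, with slide medians of 0.29, 0.68, -0.02, 3.94 and -0.49. Of the 2 higher genes, Xirp2 was well above background on 0 and Nppa on 11 of 20 arrays. Over the whole heart muscle list the mean log2 signal was 4.98, 4.94, 4.13, 5.66 and 5.39 in WT mice at 0 Gy, 9.19, 9.10, 6.82, 4.60 and 4.51 in WT mice at 7 Gy, 4.44, 4.23, 4.33, 3.99 and 5.94 in Il10-/- mice at 0 Gy, and 8.86, 8.98, 7.19, 7.18 and 4.96 in Il10-/- mice at 7 Gy. The signal was high in 3 irradiated WT and 4 irradiated Il10-/- mice, and the member with the highest probe signal on every array was Myl3, with 6 to 38 of 42 genes well above background.

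**Figure D5:**
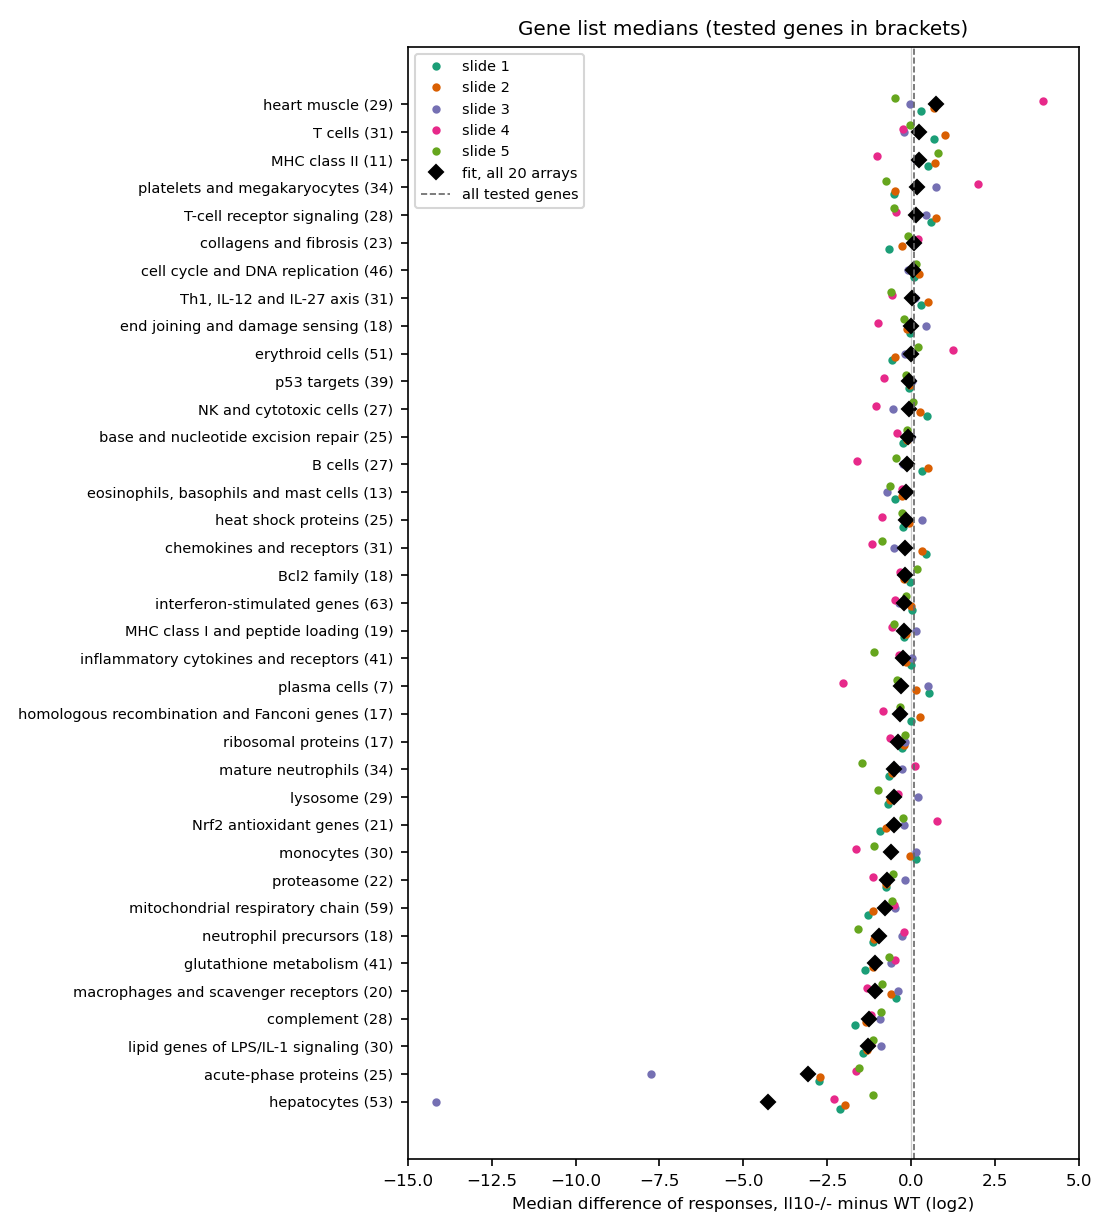
Median log2 difference of responses, Il10-/- minus WT, for the 37 gene lists (diamonds, x axis), with the median on each of 5 slides (coloured points), a line at 0 and a dashed line at the median of all tested genes. The hepatocyte list spreads from -14.18 to -1.13 over slides, while the mitochondrial and lipid lists lie below 0 on all 5.

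The remaining genes that the study measured by PCR were mainly higher in Il10-/- mice before irradiation. Gstt1, a glutathione S-transferase, had a log2 signal of 6.73, 6.48, 6.05, 7.81 and 7.13 in WT mice at 0 Gy, 12.46, 12.40, 10.03, 8.78 and 10.15 in WT mice at 7 Gy, 13.32, 13.18, 9.39, 9.45 and 10.78 in Il10-/- mice at 0 Gy, and 11.28, 11.24, 10.91, 12.80 and 10.75 in Il10-/- mice at 7 Gy. Unirradiated WT mice were below all others. The difference for Gstt1 was -3.75 (SE 1.01), but by slide it was -7.77, -7.85, -2.46, 2.38 and -3.06, so its size came mostly from replicates 1 and 2 and slide 4 had the opposite sign. Acsbg1, an acyl-CoA synthetase, had log2 signals of 5.05, 5.02, 5.51, 4.89 and 3.84 in WT mice at 0 Gy, 4.43, 4.28, 4.72, 5.76 and 4.05 in WT mice at 7 Gy, 6.53, 6.56, 7.54, 7.91 and 8.06 in Il10-/- mice at 0 Gy, and 5.59, 5.94, 4.94, 5.78 and 5.27 in Il10-/- mice at 7 Gy. Only the unirradiated Il10-/- mice stood apart, above all other samples. Acsbg1 fell by 1.82 in Il10-/- mice and was not called in WT mice at -0.21, a difference of -1.60 (SE 0.53, limma adjusted p 0.466), with slides 1 and 2 near 0 at -0.32 and 0.12. Cyp2b10, a cytochrome P450 used here where the study names Cyp2b6, rose by 1.95 in WT and 1.07 in Il10-/- mice, a difference of -0.88 (SE 0.36). Il18r1, a receptor chain for interleukin-18, fell by 1.47 in Il10-/- mice and had a response of -0.85 in WT mice that was not called, a difference of -0.62 (SE 0.38) on the log2 scale. Alas1, the first enzyme of heme synthesis outside red cells, differed by 0.34 (SE 0.56) on its brightest probe and by -1.66 on another.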

How the data were processed

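Whole-blood RNA of 20 mice was read on single-colour Agilent 4x44K mouse arrays, 1 array a mouse. Per the file headers, the array files hold an intensity that Feature Extraction (12.0.2.2; the labels give 10.7) background-subtracted and detrended on probes placed on mm9. The deposited series table holds log2 values scaled by the authors, and served as an alternative. From the intensity, spots marked as outliers were left out, spots of a probe averaged on the log2 scale, and each array scaled by its median log2 distance from Il10-/- 0 Gy replicate 3, the scaling that the deposited table shows. Of 39429 probes, those marked or not above background on 25% or more of arrays were removed (23069 left), and those at least 1.5-fold from their median on 20% or more of arrays were tested (16574). RefSeq matched 28330 of 29785 accessions.

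limma 3.58.1 in R 4.3.3 fitted 4 groups and 5 slides, leaving 12 residual degrees of freedom, and its moderated test called probes at p under 0.001 with a Benjamini-Hochberg rate under 10%. The fit was checked on simulated data. Each slide held 1 array of each group, and an exact sign test over 5 slides cannot go below 0.0625. The number of arrays limits the precision. Genes were named by rule: Il10 and the genes the study measured by PCR, the 10 smallest p in each direction, the smallest p of each list in each direction (not printed for every list), genes called in both responses with opposite sign, and the 2 brightest members of a list. Of several probes, the smallest p is given in the top lists and the brightest elsewhere. The members and the 37 gene lists were chosen with earlier results of these data known. Lists were described by counts and medians, with no set test. Alternatives covered scaling, background correction, filters, the block, array weights, liver and heart covariates, averaged replicates, variance moderation and leaving out arrays or slides. Log2 values are printed to 2 decimals, except that the closing zero is left off 5 of them.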

Additional observations from a re-analysis of the deposited data

Results flagged for a closer look

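Of 128 groups of 5 samples examined, 12 held 1 sample far from the others, where chance flags about 1 in 20 groups of independent values. These groups share the same 20 arrays and include genes named for a small p, so 12 cannot be read as an excess. On the log2 scale, WT 0 Gy replicate 4 was low for Wfdc17 at 9.46 (nearest other 11.13), Ccng1 at 5.63 (6.40) and Hp at 11.17 (12.39), and WT 0 Gy replicate 3 was low for Col5a2 at 1.58 (3.10), which is at background level. Il10-/- 7 Gy replicate 4 was high for Gstt1 at 12.80 (nearest other 11.28) and Ifit3 at 12.04 (10.98), and low for Ctsl at 9.58 (10.29). Phlda3 was high in replicate 5 at 7 Gy, at 11.52 in WT (nearest other 11.04) and 11.79 in Il10-/- mice (11.31). Ifit3 was high in WT 7 Gy replicate 3 at 11.23 (10.39), Anxa9 was low in Il10-/- 0 Gy replicate 4 at 3.88 (4.25), and the mean of the heart muscle list was high in Il10-/- 0 Gy replicate 5 at 5.94 (4.44). WT 0 Gy replicate 4 and Il10-/- 7 Gy replicate 4 were also among the arrays with few spots well above background, and what sets these samples apart was not tested. No gene's difference of responses passed the test between genotypes.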

How the results depend on the processing

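The count of 0 probes called by limma for the difference of responses held under all other scalings, the stricter filters, the random or absent block, the averaged replicates and every left-out array or slide, and did not under no filter (112 called, 79 of them not well above background on any array), array weights (1050, with weights of 3.31 to 4.76 on replicates 1 and 2 of all groups but WT 7 Gy, and 0.134 to 1.62 on replicates 3 to 5), the liver and heart covariates (3) and no variance moderation (4). Unadjusted counts (1740, with 765 higher and 975 lower) were 366 higher with the array median, 391 higher with quantile normalization, 1 higher and 1614 lower with normexp, 362 higher when probes had to be well above background on 16 of 20 arrays, 11289 (10091 higher) with no filter, 500 higher with no replicate block, 5297 (2411 and 2886) with array weights, 683 (322 and 361) with replicates 1 and 2 averaged, 401 higher with the covariates, and 794 (283 and 511) among probes well above background on all 20 arrays, where fewer probes were tested. Leaving out single arrays gave 1048 to 2848 in all, 466 to 1648 higher and 535 to 1547 lower, and leaving out slides gave 695 to 1948, 312 to 1058 and 363 to 890. Calls in the WT and Il10-/- responses (2818 and 1685) were 473 and 155 with normexp, 6716 and 6471 with array weights, 1499 and 855 with replicates averaged, 5926 and 3628 at a Benjamini-Hochberg rate under 5% alone, 1641 and 1009 among probes well above background on all 20 arrays, and 1432 to 3252 and 826 to 1960 without 1 array or slide. Of named genes, Myl4 at 0.52 and Ppbp at -0.88 took the opposite sign under array weights. Other genes with small values also changed sign: without the 2 weakest arrays Il2rb moved from -0.19 to 0.25 and H2ax from -0.19 to 0.16. Over all named genes and alternatives, 5662 values kept their side of an unadjusted p of 0.05, 210 no longer passed it and 150 newly passed it, and without the 2 weakest arrays Dcxr, Cpa3, Dapl1, Hsp90b1, Cyp2b10, Bad and Exo1 were among those that no longer did. Of the list medians, 1435 moved by less than 1 SD over slides and 82 by more. Il18bp kept its sign in 40 of 40 settings and an unadjusted limma p under 0.05 in 39. It was named for its small p, and the settings share the same arrays, so this is not separate support. Col5a2, which is at background level, kept both in 38 of 38 settings. The slide block lowered the smallest adjusted p from 0.626 to 0.457. The last filter and leaving out the 2 weakest arrays together (0 calls, 1265 unadjusted) were chosen after seeing the data. The cause of these shifts was not tested. Signal over background limits the top genes of the higher direction, 9 of 10 of them near background.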

Other observations

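On slides 1, 2 and 5 the groups took the same places in order, and on slides 3 and 4 the reverse order, so place on the slide moves with the group within each slide. The mean correlation between groups over slides was 0.41 for WT 7 Gy with Il10-/- 7 Gy and 0.23 for WT 0 Gy with WT 7 Gy, and between -0.13 and 0.07 for the other pairs of groups, each a mean across probes, which are not independent. With no moderation of the variance, the 4 called probes were Cops9 at -0.85, Anxa9 at -1.27, Zbtb8os at -1.13 and a probe named by a transcript identifier at -1.60, all lower in Il10-/- mice, and their names were chosen after their values were seen.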
